A study of Mus musculus with 63 samples.

Results

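Among single wild-type common helper innate lymphoid progenitors (CHILPs), cells with higher and lower transcript levels of the chemokine receptor gene Cxcr6 were compared. The members were chosen by their measured transcript levels: of 29 wild-type libraries, 2 (21-1 and 26-1) were left out for their myeloid transcripts and 4 for Id2 below 250 TPM, a transcript level scaled to a fixed total per library. The remaining 23 cells, of 63 libraries in the whole series, were split at a Cxcr6 level of 10 TPM into 9 Cxcr6-positive and 14 Cxcr6-negative cells. The split therefore rests on RNA, and no surface CXCR6 was measured. The series profiled polyA RNA of single mouse cells, in 29 libraries of wild-type CHILPs and 34 libraries of progenitors with the same sort phenotype regenerated from pluripotent stem cells (iR9). All 23 cells were of strain C57BL/6, had no treatment named in the labels, and had been sorted as CD45.2+ cells that bore CD127 and α4β7, with intermediate or no Sca1, and that lacked lineage markers, CD135 and CD25. The labels do not give the tissue, the age or the number of the mice that these wild-type cells came from.

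Helper innate lymphoid cells (ILCs) are lymphocytes without rearranged antigen receptors, grouped as ILC1, ILC2 and ILC3, with the lymphoid tissue inducer (LTi) cells close to the last. They descend from Id2-expressing bone marrow progenitors in which the factors TCF-1, TOX, GATA3 and PLZF act, and PLZF marks a later precursor of the helper ILCs from which LTi cells do not come. CXCR6 is the receptor of the chemokine CXCL16. It is used to mark marrow progenitors that have lost B and T cell potential, and it has been tied to the release of ILC progenitors from the marrow.

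Cxcr6 (chromosome 9, 123806475 to 123811760, GRCm38) was at 4661, 4614 and 3937 TPM in cells 1-1, 14-1 and 13-1, at 1352 TPM in 28-1, and at 486, 430 and 376 TPM in 10-1, 8-1 and 17-1. The positive cells closest to the threshold were 23-1 at 81.0 and 19-1 at 24.04 TPM. The highest Cxcr6-negative cell, 25-1, held 7.74 TPM, and the lowest, 3-1, was listed at 0. Negative cells were thus not all without Cxcr6 transcripts, and a threshold of 5 TPM gave 14 positive and 9 negative cells. On the log2(TPM + 1) scale the Cxcr6 mean was 9.33 ± 2.65 (SD over 9 cells) against 1.86 ± 0.93 (SD over 14 cells), a gap that the rule itself set. Id2, the inhibitor of E proteins on which the ILC lineage depends, ran from 1117 to 11725 TPM in the positive and from 710 to 24982 TPM in the negative cells. The Id2 value just outside the minimum was 216 TPM, in cell 29-1.

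**Figure D1:**
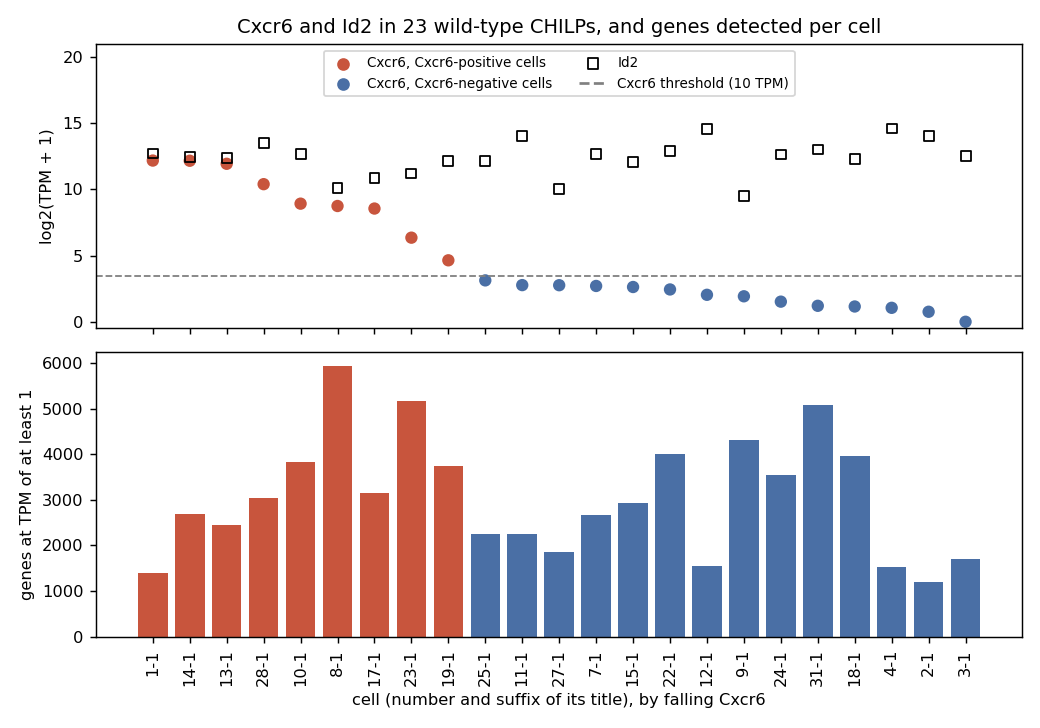
Upper panel: log2(TPM + 1) of Cxcr6 (filled points) and Id2 (open squares) in each of the 23 cells, ordered by falling Cxcr6, with the threshold of 10 TPM dashed. Lower panel: number of genes reaching 1 TPM in the same cells, which ran from 1405 to 5939 in the positive and from 1189 to 5080 in the negative cells.

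A gene is called detected in a cell at 10 TPM or more. The transcript of the sort marker CD127, Il7r, was detected in 9 of 9 positive and 13 of 14 negative cells. Flt3, encoding CD135, was detected in 1 positive cell, 17-1 (103 TPM), and Il2ra, encoding CD25, in none of the 23. The chains of α4β7, Itga4 and Itgb7, were detected in 8 and 8 of 9 positive but in 5 and 8 of 14 negative cells. Cd3e, of the T cell receptor complex, was listed at 0 in all 23 cells, as were the recombination genes Rag1 and Rag2 and the B cell factors Ebf1 and Pax5. Other T and B cell genes were not absent. Cd247 was detected in 2 positive cells, at up to 256 TPM, and Cd3d and Cd4 in 1 each, Cd4 at 667 TPM. The B cell gene Cd79b was detected in 3 positive cells, at up to 539 TPM, and reached 1229 TPM in negative cell 12-1.

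The labels name neither animals nor cultures, so the 23 cells count as 1 sample, no test between the groups was possible, and each value below describes these cells with the spread over them. TPM keeps no read depth. More genes were found in Cxcr6-positive cells, with medians of 3145 against 2459.5 genes reaching 1 TPM and of 2769 against 1836.5 detected genes. Transcripts of ribosomal protein genes took a median of 6.98% of TPM in the positive and 10.08% in the negative cells. Counted were the 4721 genes detected in 20% or more of the 23 cells, of which 68.4% had a higher mean log2(TPM + 1) in the positive cells, and the median difference was 0.62. A difference is therefore read against this shift, and it was 0.07 after quantile normalization and -0.04 with the number of genes per cell as a covariate.

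A difference of at least 2 in mean log2(TPM + 1), positive minus negative, was reached by 718 genes that were higher (15.2% of those counted) and 107 that were lower (2.27%). The split depended on the scaling: 331 higher and 181 lower after quantile normalization, 366 and 332 with genes per cell as a covariate, and 329 and 301 for the ratio of mean TPM. Shares of cells with a gene detected were higher by at least 40 percentage points for 244 genes (5.17%) and lower for 18 (0.381%). Without cell 1-1 the count of higher shares was 513 and without 13-1 it was 379, and without 8-1 the lower genes numbered 167 by mean and 33 by share. By both measures 237 genes were higher and 16 lower. These percentages are the background for the counts of each gene group below. The means of single genes had SDs of several log2 units, so the groups overlapped for nearly every gene described.

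Factors of ILC progenitors were, as a group, not higher in Cxcr6-positive cells. Of 15 counted members, 4 had a higher mean and 11 a lower one, while 2 were higher and 1 lower by at least 2. The list median was -0.61, or -1.23 against all counted genes, but turned to 0.29 without the 5 cells with high Cd74 that are described below and to 0.24 without an Id2 minimum. Tox, an HMG-box factor needed for ILC development (chromosome 4, 6686353 to 6991557), was at 0.384 to 1634 TPM (median 26.5) in positive and 0 to 1826 TPM (median 493) in negative cells. It was detected in 6 of 9 (66.7%, exact Clopper-Pearson 95% interval 29.9 to 92.5%) and 12 of 14 cells (85.7%, 57.2 to 98.2%), with a mean difference of -2.22. For the ratio of mean TPM the log2 was only -0.44. Intervals of shares here cover counting error only, and these overlap widely.

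Zbtb16, encoding PLZF (chromosome 9, 48654297 to 48836222), had a median of 0.287 TPM in positive and 65.9 TPM in negative cells, and was detected in 3 and 8 of them. Its mean difference was -1.90, and -0.28 with the Cxcr6 threshold at 5 TPM. Pdcd1, encoding PD-1, a surface receptor of ILC precursors, was detected in 4 and 8 cells (-1.50, but 0.60 with the Cxcr6 threshold at 5 TPM), and Bcl11b, a factor of T cells and ILC2, in 1 and 5 (-1.75). Gata3 was detected in all 9 positive and 13 negative cells, and Tcf7, encoding TCF-1, in 7 and 12, with differences of -0.25 and -0.64. The 2 members higher by at least 2 were Lef1, a relative of TCF-1, in 6 of 9 against 4 of 14 cells (2.35), and the zinc finger factor Zbtb7a in 6 against 3 (2.08). Cells of both groups thus held progenitor factors, with 5 to 14 of 18 listed genes detected per positive and 3 to 13 per negative cell.

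Genes of ILC3 and LTi cells gave a mixed picture that turned on few cells. Of 8 counted members, 5 had a higher mean, 2 of them by at least 2, and the list median of 0.67 lay 0.05 above that of all genes. Tmem176a, a membrane protein gene abundant in ILC3, was at 0 to 6186 TPM (median 46.0) in positive and 0 to 2760 TPM (median 9.37) in negative cells. It was detected in 5 of 9 and 7 of 14 cells, with means of 6.56 ± 5.30 and 5.41 ± 3.83, so the groups overlapped. Kit, a growth factor receptor gene of progenitors and ILC3, was detected in 4 of 9 and 2 of 14 cells, with a difference of 1.53. Without the Cd74-high cells, Kit turned to -0.59 and Tmem176a from 1.15 to -1.79. Il23r and Il22, genes of mature ILC3, stayed below 10 TPM in all 23 cells.

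The lymphotoxin genes Lta and Ltb, whose products induce lymphoid tissue as a membrane-bound complex, lie with Tnf between them on chromosome 17 (Ltb at 35194439 to 35196320, Lta at 35203165 to 35205351). Ltb overlapped widely between the groups: it was at 0 to 4682 TPM (median 1031) in positive and 3.70 to 13989 TPM (median 803) in negative cells, with means of 9.09 ± 3.68 and 9.11 ± 2.85. Their difference of -0.01 was 1.13 without positive cell 28-1, 1.52 without an Id2 minimum and -1.67 with the Cxcr6 threshold at 5 TPM. Its neighbour Lta was detected in 5 of 9 positive (55.6%, 21.2 to 86.3%) and 2 of 14 negative cells (14.3%, 1.78 to 42.8%). The values were 1185, 882, 526, 351 and 246 TPM in positive cells 14-1, 13-1, 19-1, 10-1 and 17-1, and 992 and 355 TPM in negative cells 4-1 and 22-1. All other cells held at most 8.08 TPM. The mean difference of 2.84 became -0.28 without cells at a Cd74 level of at least 1000 TPM, an alternative chosen after seeing the data. Of the 5 positive cells with Lta, 4 were among those left out.

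Of 10 counted genes of the lymphotoxin and TNF family, 7 had a higher mean and 3, Tnfrsf25 (2.90), Lta and Traf1 (2.54), were higher by at least 2, with a list median of 0.93. Tnfrsf25, the receptor of the cytokine TL1A, was detected in 4 of 9 and 2 of 14 cells. The adaptor gene Traf1 was detected in 4 and 2 cells. Tnf itself was detected in 2 and 3 cells.

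Genes of ILC1 and natural killer cells showed no stable direction. Of 12 counted members, 7 had a lower and 5 a higher mean, 1 was higher by at least 2, and the list median was -0.35, or -0.98 against all genes, but 0.54 without an Id2 minimum, and it kept its sign in 19 of the 23 cases of leaving out 1 cell. Per cell, a median of 8 of the listed genes was detected in positive and 6 in negative cells. Nkg7, which encodes a protein of cytotoxic granules (chromosome 7, 43437073 to 43438249), was at 1.77 to 3725 TPM (median 703) in positive and 0 to 5127 TPM (median 2690) in negative cells. It was detected in 6 of 9 and 11 of 14 cells, with means of 7.16 ± 4.11 and 8.86 ± 4.64. Within the positive cells the 3 with the most Cxcr6 held 1.77 to 6.59 TPM of Nkg7, and the other 6 held 147 to 3725 TPM. Nkg7 was low as well in 3 negative cells, 3-1, 4-1 and 7-1, at no more than 4.58 TPM.

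The adaptor gene Tyrobp, which serves killer receptors, had a lower mean in positive cells (-1.71, 4 of 9 against 9 of 14 cells). Cd7, a surface protein of lymphoid cells, had a higher mean (2.04, 6 of 9 against 8 of 14), while its ratio of mean TPM went the other way (log2 of -0.55). Il2rb, a shared chain of the interleukin 2 and 15 receptors, had a difference of 1.89. Ifng, Gzmb and Prf1, effector genes of natural killer cells, were listed at 0 in all 23 cells.

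The ILC2 genes showed no common direction, with 3 of 6 counted members higher and 3 lower, none by as much as 2, and a median of 0.16 that turned to -0.50 after quantile normalization. Il17rb, a receptor chain for interleukin 25, was detected in 4 positive and 4 negative cells, and Icos, a costimulatory receptor, in 3 and 3. Arg1, the arginase of ILC2, was detected in 4 and 4 cells.

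**Figure D2:**
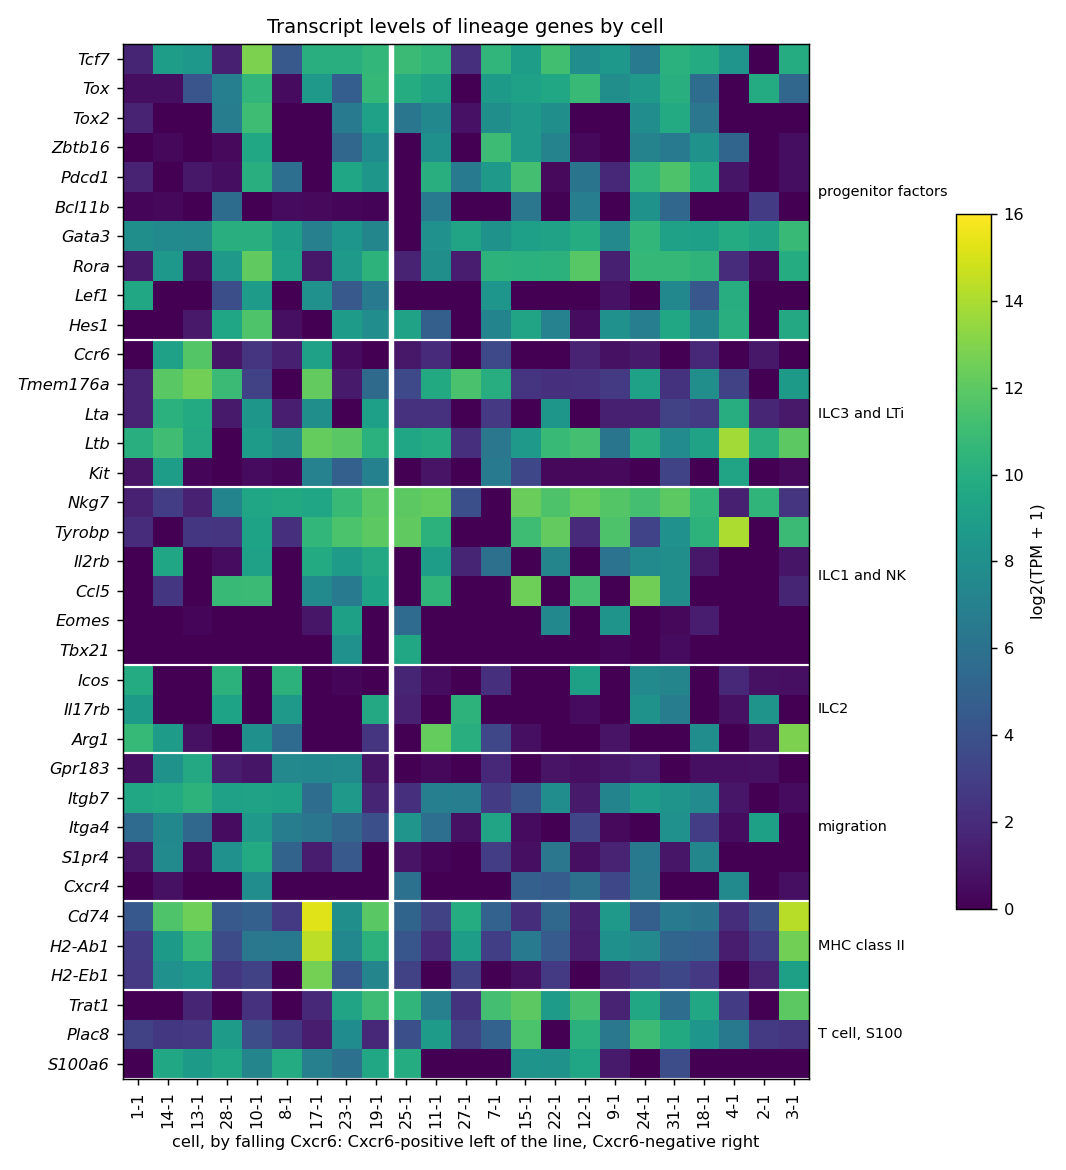
Heat map of log2(TPM + 1), coloured from 0 to 16, for genes of ILC progenitors, ILC lineages, migration, MHC class II and others (rows) in the 23 cells (columns, by falling Cxcr6), with the 9 Cxcr6-positive cells left of the white line. Ccr6 is high in 13-1, 14-1 and 17-1, Icos in 1-1, 28-1 and 8-1, and Nkg7 is low in the 3 cells with the most Cxcr6.

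Cxcr6-positive cells differed strongly among themselves. Each of the 9 had 1, and no more, of Ccr6, Icos and Zbtb16 detected, a pattern noticed and chosen after their values were seen. Ccr6, a chemokine receptor of LTi cells (chromosome 17, 8236043 to 8257141), was at 3372, 570 and 559 TPM in 13-1, 17-1 and 14-1. Tmem176a was at 6186, 4627 and 3825 TPM in them. Tox was at 17.4, 388 and 0.501 TPM, and Zbtb16 at no more than 0.287 TPM.

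Icos was at 1269, 1247 and 914 TPM in cells 28-1, 8-1 and 1-1. The same cells held Il17rb at 620, 395 and 419 TPM, and Lta at no more than 1.87 TPM. Zbtb16 was at 731, 214 and 37.6 TPM in cells 10-1, 19-1 and 23-1. There the PD-1 gene Pdcd1 stood at 1050, 354 and 681 TPM, Tox2 at 2113, 569 and 99.96 TPM, and Nkg7 at 717, 3725 and 1810 TPM. Cell 19-1 also held Il17rb, at 815 TPM. Of the 14 Cxcr6-negative cells, 6 had 1 of the 3 genes detected, 5 had none and 3 had at least 2. Zbtb16 was the one found most often among them, in 8 cells, against 3 for Icos and 1 for Ccr6.

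Among receptors of migrating lymphocytes, Gpr183 was detected in none of the negative cells. It encodes the oxysterol receptor EBI2, which guides lymphoid cells within tissue (chromosome 14, 121952551 to 121965195). It was at 817, 299, 192, 182 and 172 TPM in positive cells 13-1, 14-1, 23-1, 8-1 and 17-1. The other 4 positive cells held 0.607 to 1.32 TPM, and the 14 negative cells 0 to 2.505 TPM. It was thus detected in 5 of 9 positive (55.6%, 21.2 to 86.3%) and 0 of 14 negative cells (0 to 23.2%), and the mean difference was 4.35. The values of the positive cells fell into a high and a low set, and the low set overlapped with the negative cells.

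Of 7 counted chemokine and migration receptor genes, Gpr183 and the sphingosine 1-phosphate receptor gene S1pr4 (2.20, 5 of 9 against 3 of 14 cells) were higher by at least 2, and the list median was 0.34. Under genes per cell as a covariate that median turned to -0.30, and with the Cxcr6 threshold at 5 TPM to -0.49. Cxcr4, the receptor that holds progenitors in the marrow, was detected in 1 positive cell, 10-1, and 7 negative cells, with a difference of -1.88. For the ratio of mean TPM its log2 was only -0.39, and with pseudocount 10 the difference was -0.77.

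Integrin genes had higher means in positive cells in 11 of 12 cases, 4 of them by at least 2, with a list median of 1.43, or 0.81 against all genes. After quantile normalization the list median was 0.19. Itgb7, the β7 chain of the sort marker α4β7 (chromosome 15, 102215995 to 102231944), was at 2.22 to 1292 TPM (median 558) in positive and 0 to 453 TPM (median 64.7) in negative cells. Its means were 8.13 ± 2.75 and 4.67 ± 3.29. Cells 13-1, 14-1, 1-1, 10-1, 28-1 and 8-1 held 542 to 1292 TPM, above the highest negative cell, while 23-1, 17-1 and 19-1 held 381, 52.0 and 2.22 TPM. The partner chain Itga4 was detected in 8 of 9 and 5 of 14 cells (2.04), but its ratio of mean TPM went the other way (log2 of -0.40). Icam1, an adhesion ligand, and the β1 chain Itgb1 had differences of 2.22 and 2.00.

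**Figure D3:**
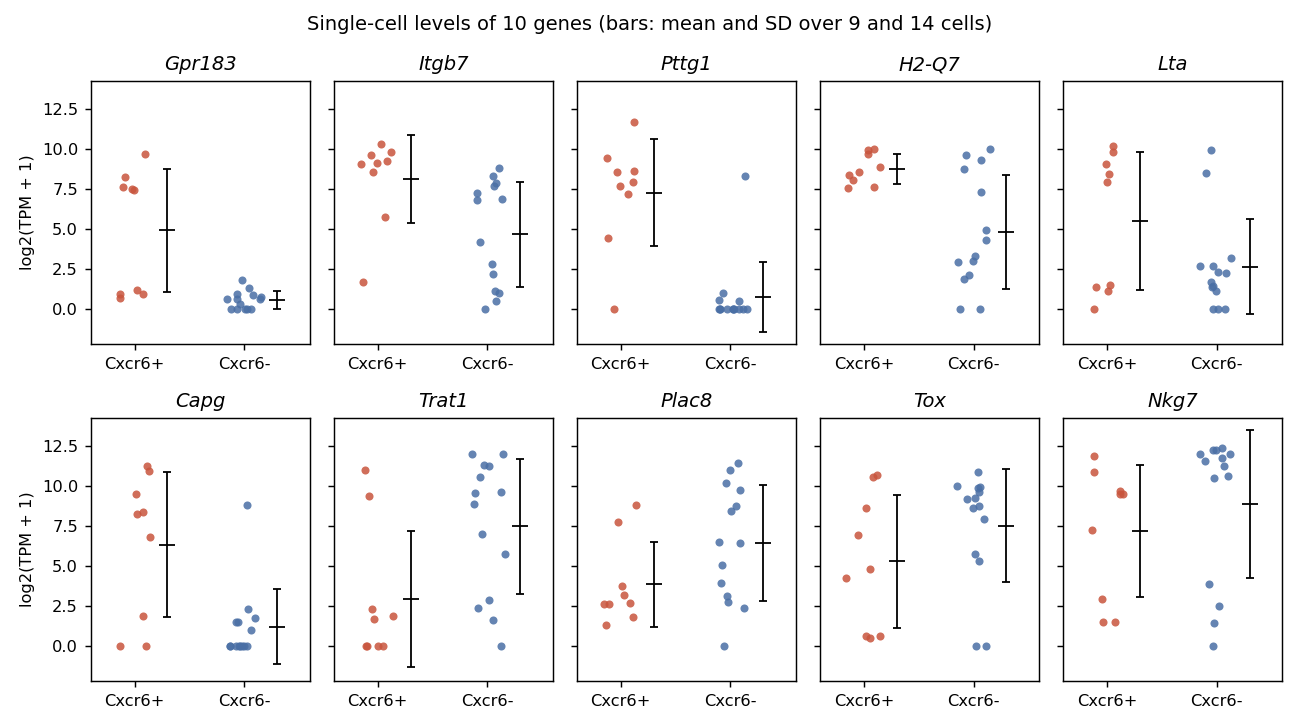
Single-cell log2(TPM + 1) of 10 genes in the 9 Cxcr6-positive (red) and 14 Cxcr6-negative cells (blue), with bars for the mean and SD over cells. Pttg1 is detected in 8 and 1 cells and Gpr183 in 5 and 0, while Nkg7, Tox and Trat1 have higher means among the negative cells and overlap between the groups.

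The gene with the lowest difference among those named was Trat1, which encodes a transmembrane adaptor of the T cell receptor complex (chromosome 16, 48730774 to 48772021). It was detected in 2 of 9 positive cells (22.2%, 2.81 to 60.0%), 19-1 and 23-1 at 1980 and 663 TPM, and in 10 of 14 negative cells (71.4%, 41.9 to 91.6%), where the median was 605 and the highest value 3981 TPM. The mean difference was -4.56 and became -1.99 for the ratio of mean TPM and -1.89 with the threshold of Cxcr6 at 5 TPM. Other genes of T cell signalling did not share it. Of 9 counted members 5 had a higher and 4 a lower mean, with a median of 0.00. The kinase gene Lck (1.65) and the adaptor genes Lat (1.72) and Skap1 (1.75) had higher means in positive cells. Lck turned to -0.13 after quantile normalization, -0.36 for the ratio of mean TPM and -0.99 with the Cxcr6 threshold at 5 TPM, and Skap1 to -0.19 with that threshold.

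Among genes of common lymphoid progenitors, 4 of 6 counted had a higher mean and the median was 0.56, which turned to -0.31 after quantile normalization, -0.17 in the shared range of genes per cell and -0.63 without an Id2 minimum. Hes1, a target of Notch signalling, had a difference of -2.03 and was detected in 4 of 9 and 11 of 14 cells, although its ratio of mean TPM was higher (log2 of 0.56) through 3149 TPM in cell 10-1. Of 11 counted genes of interleukin 7 and JAK-STAT signalling, 9 had a higher mean, with a median of 0.84, and 1, Stat3, was higher by at least 2 (2.13, 7 of 9 against 7 of 14 cells). Il2rg, the common cytokine receptor chain, was at 979 to 12077 TPM in positive and 9.97 to 4297 TPM in negative cells (1.55).

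Genes of the NF-κB pathway had a list median of 1.41, with 6 of 9 counted members higher and 3 of them, Nfkb2, Nfkb1 and Birc2, by at least 2. Nfkb2, encoding the p100 precursor of the non-canonical pathway that lymphotoxin receptors use, was detected in 6 of 9 and 3 of 14 cells, with means of 4.99 ± 3.72 and 1.94 ± 2.90. Nfkb1 was detected in 7 and 5 cells (2.64), and Birc2, an inhibitor of apoptosis in the same pathway, in 4 and 3 (2.095). The list median lay 0.79 above that of all genes and was 0.65 with genes per cell as a covariate. It kept its sign under all 16 alternatives, from 0.42 for the ratio of mean TPM to 2.00. The list of widely used genes did so too, from 0.35 to 0.86, so a held sign was not particular to this pathway. Immediate early genes such as Jun had a median of 0.65, close to that of all genes, and none of 13 differed by as much as 2.

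Within the S100 and maturation list, of 15 counted members 9 had a higher mean and 6 a lower one, with a median of 0.37, and single genes went opposite ways. S100a6, a calcium-binding protein (chromosome 3, 90612882 to 90624181), was detected in 8 of 9 and 5 of 14 cells, with medians of 416 and 0 TPM and a difference of 4.58. S100a4 had a difference of 2.63. Plac8 (chromosome 5, 100553725 to 100572245) was lower, with medians of 5.22 and 86.4 TPM, detection in 3 of 9 and 10 of 14 cells, and a difference of -2.57.

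Cell cycle genes were unevenly spread. Of 8 counted members 7 had a higher mean, with a median of 1.12 that turned to -0.83 among cells with a shared range of genes per cell and to -0.67 with the Cxcr6 threshold at 5 TPM. The only member higher by at least 2 was Mcm5, of the replication helicase (2.77, 5 of 9 against 2 of 14 cells). Per cell, 0 to 20 of 24 listed genes were detected in positive cells (median 2) and 0 to 8 in negative cells (median 2.5). Cell 8-1, with the most detected genes, held the 20, and positive cell 23-1 held 14.

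Genes of MHC class I presentation had higher means in positive cells in 12 of 14 cases, 3 of them by at least 2, with a median of 1.12, or 0.49 against all genes. H2-Q7, a class I heavy chain of the Qa-2 type (chromosome 17, 35439155 to 35443773), was at 189 to 1002 TPM (median 384) in all 9 positive cells and at 0 to 1001 TPM (median 13.6) in negative cells, with detection in 7 of 14. Its difference was 3.92, with an SD of 0.95 over positive and 3.54 over negative cells. H2-Q7 has near-identical neighbouring copies among which reads may have been divided, so its level is uncertain. The peptide-trimming enzyme gene Erap1 (3.51, 6 of 9 against 2 of 14 cells) and the peptide-loading factor gene Tapbp (2.79, 8 of 9 against 6 of 14) were the others. The classical heavy chain genes H2-K1 and H2-D1 differed by 1.70 and 1.59, and B2m, the light chain, by 0.54.

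Markers of other cell types were examined in the same way. Of 9 counted dendritic cell genes, 8 had a higher mean in positive cells, 6 of them by at least 2, and the list median was 2.66. Their summed level was 409 to 84624 TPM (median 1359) in positive and 13.3 to 29821 TPM (median 1127) in negative cells, against 168069 to 179447 TPM in the left-out cells 21-1 and 26-1. Per cell, 2 to 12 of the 15 listed genes were detected in positive and 0 to 7 in negative cells. Positive cell 17-1 held the 12, as many as left-out cell 21-1 and more than 26-1, with 9. The list includes Cd74 and MHC class II genes, which LTi-type ILC3 also express. Cd74 was at 38354, 5710, 3867 and 3119 TPM in positive cells 17-1, 13-1, 19-1 and 14-1 and at 19930 TPM in negative cell 3-1. Among the listed genes, Itgax was at 0 and Siglech below 10 TPM in all 23 cells, and Zbtb46 was at 97.9 TPM in 14-1. Itgax, Siglech and Zbtb46 were also the listed genes not detected in 17-1, which held all the others. That cell was the positive cell with Flt3 detected, at 103 TPM. The cells 13-1, 14-1 and 17-1, in which Ccr6 was highest, are among these 5 Cd74-high cells. Without the 5 cells the dendritic cell median was 0.72 and the ILC3 and LTi median -1.34, and the part of these transcripts in the other differences was not tested.

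Bst2, an interferon-induced surface protein also made by plasmacytoid dendritic cells, was detected in 5 of 9 and 1 of 14 cells (4.19). Of 5 counted interferon response genes, 3 had a higher mean, and Bst2 and Ifi203 (2.48) differed by at least 2. Of 3 counted myeloid genes Ctss, a lysosomal protease that serves antigen presentation, was higher by 3.35. Lyz2, the macrophage lysozyme, was at 0 to 64.0 TPM in positive and 0 to 139 TPM in negative cells. Mast cell, B cell and erythroid lists had 1 counted gene each.

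Of 26 ribosomal protein genes, 11 had a higher and 15 a lower mean, none by as much as 2. Their median was -0.18, or -0.81 against all genes, and 4 of them lay above the median of all genes. The list median was -0.03 after quantile normalization and -0.53 with genes per cell as a covariate. Of 11 counted widely used genes 10 had a higher mean, with a median of 0.57 near that of all genes. Hprt (3.74) and Sdha (2.08), a purine salvage and a mitochondrial enzyme, nevertheless reached 2, and Hprt was listed at 0 in 6 negative cells. With the Cxcr6 threshold at 5 TPM, Hprt turned to -0.53 and Sdha to -0.27. Single-gene gaps of this size thus occurred also among genes that every cell uses.

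**Figure D4:**
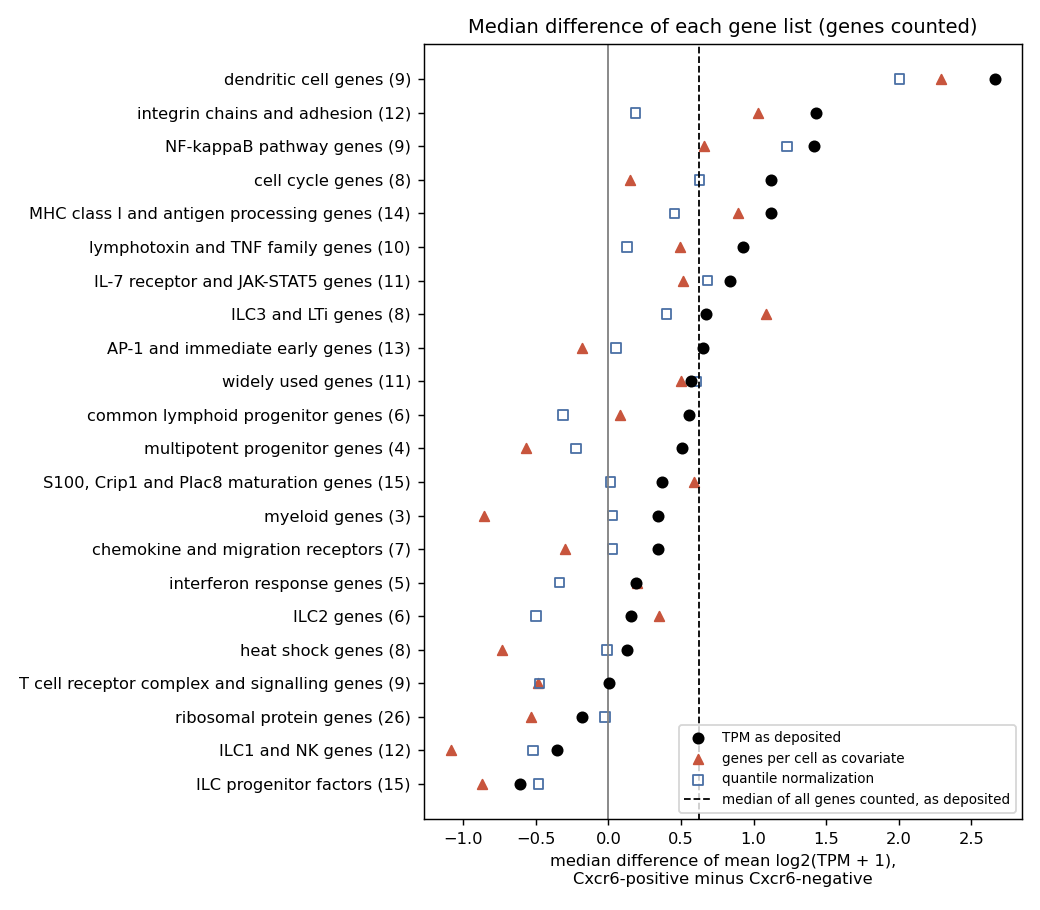
Median difference in mean log2(TPM + 1), Cxcr6-positive minus Cxcr6-negative, for lists with at least 3 counted genes (number in parentheses), from TPM as deposited, with genes per cell as a covariate and after quantile normalization. The dashed line is the median of all 4721 genes, 0.62. Dendritic cell genes stand at the top (2.66) and ILC progenitor factors at the bottom (-0.61).

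Among the named genes other than Cxcr6 the highest difference was that of Pttg1, whose product securin holds back the separation of sister chromatids (chromosome 11, 43420250 to 43426251). It was at 20.4 to 3226 TPM in 8 of 9 positive cells (88.9%, 51.8 to 99.7%), with 0 in 23-1. In negative cells it was detected in 1 of 14 (7.14%, 0.181 to 33.9%), at 310 TPM, and the difference was 6.53. Next came the membrane scaffold gene Slc9a3r1 (5.34), detected in all 9 positive and 5 negative cells, the myosin gene Myo1g (5.32) and the actin-capping gene Capg (5.12). Capg was detected in 6 and 1 cells and highest in 17-1, 13-1 and 14-1 (2391, 1915 and 723 TPM). Pomp, the proteasome maturation protein (5.04), was at 369 to 2223 TPM in the positive cells and detected in 8 of 14 negative ones, but turned to -0.85 with the Cxcr6 threshold at 5 TPM. The remaining 10 of the 15 largest were between 4.58 and 5.06 and included the small GTPase gene Rab7 (4.63) and the adaptor gene Samsn1 (4.94).

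On the other side, after Trat1, came Psmc6, a proteasome ATPase (-4.02, 2 of 9 against 9 of 14 cells), Lamtor4, a subunit of the lysosomal Ragulator complex (-3.91, 4 against 12), and the caspase gene Casp6 (-3.80, 1 against 8). The oxidase subunit gene Ncf4 closed the list of 15 at -2.92. Of the 63 named genes past a difference of 2, 59 kept their sign with the Cxcr6 threshold at 5 TPM, 60 for the ratio of mean TPM and 61 without the Cd74-high cells. Apart from Ltb, Lta, Nkg7 and the progenitor factors, the named genes had been chosen by size of difference in these same cells. They were up to 4 per list and the 15 largest per direction. The latter had also been chosen for a sign that held when each cell was left out. These counts were therefore largely fixed by the choice and lend no support to the differences.

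**Figure D5:**
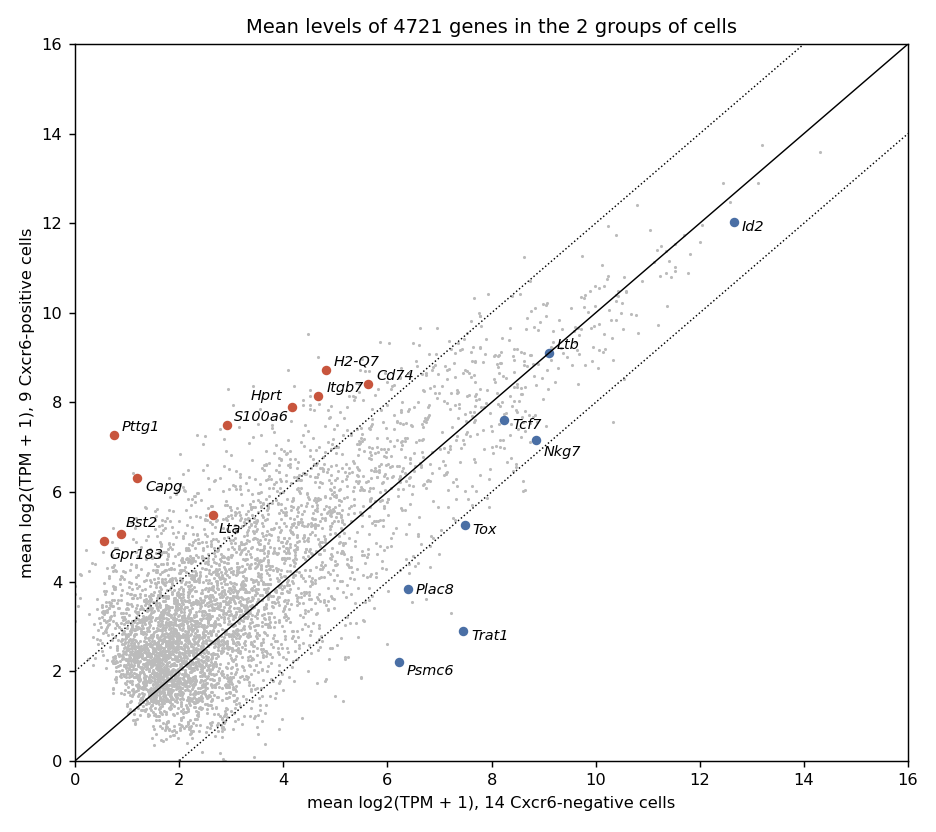
Mean log2(TPM + 1) of 4721 genes in the 14 Cxcr6-negative (x axis) and 9 Cxcr6-positive cells (y axis), with the line of equal means solid and differences of 2 dotted. Coloured points are named genes. More points lie above the upper dotted line (718) than below the lower one (107), and Ltb lies close to the solid line.

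The 34 iR9 libraries came to 19 cells when libraries with the same cell number were averaged. Libraries with a title suffix of 1 were kept apart from the others. The labels do not state that averaged libraries are 1 cell. On that count, Cxcr6 was detected in 17, Gpr183 in 15 and Ltb in 19. Lta was detected in 10 of them and Nkg7 in none.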

How the data were processed

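Single sorted cells were profiled from amplified polyA RNA, per the labels' protocols. The authors deposited TPM per gene symbol and library. The submitters' processing notes list bcl2fastq 2.16.0.10, SAMtools 0.1.19, HISAT2 2.1.0, the build mm10 and StringTie 1.3.4, without saying what each did. TPM has a fixed total per library and holds no depth, so no count test or depth-based interval could be made, and 0 says no more than that a gene is listed at 0. Of 23420 rows, 27 with date-like symbols were left out. They held at most 0.540% of TPM in the 23 cells.

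Values are means of log2(TPM + 1), pseudocount 1, which understates the change of low genes. Detection means 10 TPM or more, and genes counted were detected in 20% or more (5) of the 23 cells, without Cxcr6. With 1 sample of cells there was no test, and a difference of 2 or 40 percentage points served as a limit of size. Shares have exact Clopper-Pearson 95% intervals. Cells were sorted singly and no doublet caller was run, so doublets were not checked for.

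Members, thresholds and the 27 lists (474 symbols, 13 without a row) were chosen with earlier results of these data known. Named genes were Cxcr6, Ltb, Lta and Nkg7, the counted progenitor factors, up to 4 of each other list by size of difference, and the 15 largest per direction among genes detected in 50% or more of the higher group that kept their sign when each cell was left out, without predicted genes. Other list members are given where named. Alternatives covered thresholds, cells, pseudocounts, scaling and filters. The scripts ran in Python 3.11.15 with pandas 2.3.3, SciPy 1.17.1, NumPy 2.4.6 and matplotlib 3.10.9 and were tested on simulated data. Coordinates are GENCODE M21 on GRCm38. Some list members are not reported here by name.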

Additional observations from a re-analysis of the deposited data

Results flagged for a closer look

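Of 129 values examined over the 9 Cxcr6-positive cells, 18 had 1 cell whose gap to its nearest neighbour took up more of the whole range than Dixon's 95% critical value allows. That critical value assumes normally distributed values, whereas many of these genes were listed at 0 in part of the cells. The number flagged therefore cannot be set against a rate expected by chance. The share of the range is given for each, on the log2(TPM + 1) scale. Cell 1-1, with the fewest detected genes, was the low one for Anapc13 (0.757), Rpl3 (0.726), Api5 (0.712), Naa10 (0.688), Rpl32 (0.684), S100a6 (0.613), Hsp90ab1 (0.602) and Sdha (0.550). Cell 8-1, with the most detected genes, was the high one for Ankrd32 (1.000), Ash2l (0.862) and Slc48a1 (0.853), genes with lower means in the positive cells. Its Ankrd32 level was 9.83 TPM, below detection, and the other positive cells were listed at 0. Cell 28-1 was the low one for Ltb, listed at 0 (0.646), and the high one for Bcl11b, at 49.2 TPM (0.914). Cell 10-1 was the high one for the marrow retention receptor gene Cxcr4, at 224 TPM (0.908), and for Casp6 (0.783). Unc119 was high in 19-1 (0.830), Samsn1 low in 17-1 (0.662) and Mlf2 low in 14-1 (0.732).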

How the results depend on the processing

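No paired analysis was possible because no test was made and all 23 cells count as 1 sample. Chosen after seeing the data were the covariate, the comparison of Cxcr6 of at least 300 with below 10 TPM, and leaving out cells at Cd74 of at least 1000 TPM. Genes higher by at least 2 (718) and genes lower by at least 2 (107) became 293 and 299 with Cxcr6 split at 5 TPM, 145 and 16 with pseudocount 10, 1277 and 238 with pseudocount 0.1, 331 and 181 after quantile normalization, 329 and 301 by ratio of mean TPM, and 366 and 332 with the covariate. For genes detected in 40% of cells they were 342 and 53, but of 1939 genes counted rather than 4721. The lower count was 373 in the shared range of genes per cell, 217 for Cxcr6 of at least 300 TPM and 180 without the Cd74-high cells. Genes with shares higher by at least 40 points (244) and genes with shares lower by at least 40 points (18) became 47 and 54 with Cxcr6 split at 5 TPM, 95 and 7 of the 1939 genes detected in 40% of cells, and 589 and 31 without the Cd74-high cells. The higher share count was 135 without an Id2 minimum, and the lower one 35 with Cxcr6 split at 50 TPM, 11 with cells 21-1 and 26-1 kept, 75 in the shared range and 44 for Cxcr6 of at least 300 TPM. The median genes per cell, positive minus negative (685.5), was -735.5 with Cxcr6 split at 5 TPM. Reversed among the 63 named genes past a difference of 2 were Hprt (-0.53), Sdha (-0.27), Pomp (-0.85) and Unc119 (0.46) with Cxcr6 split at 5 TPM, Cd7 (-0.55), Itga4 (-0.40) and Hes1 (0.56) for the ratio, and Lta (-0.28) and Cd74 (-0.081) without the Cd74-high cells, and the cause was not tested. Of all 127 named genes, 104, 113 and 113 kept their sign under these 3 alternatives. Leaving out each cell in turn gave 573 to 1006 higher and 79 to 167 lower genes, shares of 202 to 513 and 13 to 33, a median genes per cell difference of 482 to 987.5, and list medians that kept their sign for ILC3 and LTi genes (0.42 to 1.57) but not for ILC1 and NK genes (-0.97 to 0.28). Depth is unknown and limits every low value.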
